A study of Mus musculus with 28 samples.

Results

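The livers compared came from 8 wild-type mice: 4 that were fed ethanol plus trans-resveratrol (EtOH+RSV) and 4 that were fed the control diet, out of 28 mice in the whole series. The 8 arrays were chosen by their labels alone, and every probe set on them except the manufacturer's control probe sets was used. The wild-type mice were stated to be female C3H/HeN, 5 weeks old when they were bought, and each array held liver RNA of 1 mouse. After an acclimation of 1 week on a standard chow, the mice were given Lieber's isocaloric liquid diet, at will for 1 week and then at 12 g a day for 4 weeks. The EtOH+RSV diet held ethanol and trans-resveratrol, at an intake of about 50 mg of the polyphenol per kg of body weight a day, and the control diet held water in place of ethanol and several times as much maltose and dextrin, which made up the energy. The difference between these diets is therefore that of ethanol and resveratrol given together with less carbohydrate, and this comparison cannot tell these apart. The other wild-type diets were ethanol plus ellagic acid (EtOH+EA, 4 mice) and ethanol alone (EtOH, 4 mice). By the stated formula both held as much ethanol and carbohydrate as EtOH+RSV, so EtOH+RSV and EtOH differed by design in resveratrol. A further 12 mice that lacked the constitutive androstane receptor (CAR-deficient) were fed the same 4 diets, 3 mice on each. The CAR-deficient mice had a C3H/HeN background, and their sex and age are not stated apart from those of the wild type. How CAR was deleted is not given in the labels. No wild-type mice received resveratrol without ethanol, so an effect of resveratrol on its own cannot be read from these arrays. The mice were killed at 10:00, 2 hours after lights on, and the order in which they were killed was not given. The P values below measure only the spread between these mice.

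Resveratrol is a stilbene of grape skin, and ethanol is oxidized in the liver by alcohol dehydrogenase, by cytochromes P450 and by aldehyde dehydrogenases. CAR is a nuclear receptor of hepatocytes that moves to the nucleus in response to many foreign compounds and turns on cytochromes P450 of the Cyp2b and Cyp2c families, glutathione transferases and conjugating enzymes. The liver also carries a circadian clock, a loop in which the activators CLOCK and BMAL1 drive the genes of their own repressors (the PER and CRY proteins) from DNA elements called E-boxes, while factors such as TEF and NFIL3 act through D-boxes.

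RNA was measured on Affymetrix arrays of the mouse genome, on which a gene is read by 1 or more probe sets of short oligonucleotides. The deposited values were log2 expression values made by distribution free weighted summarization (DFW), which shrinks the spread of probe sets that vary little. Of 45037 probe sets, 38404 (85.3%) had an SD of 0.01 or less over the 16 wild-type arrays. These are called compressed below, and no called difference among them was larger than 0.0217. DFW differences are given as such, in DFW log2 units, and cannot be turned into fold changes. For each gene the probe set of highest mean was used, which left 18193 genes, 3855 of them uncompressed. Array medians lay between 6.693 and 6.695 in all 16 wild-type arrays, and the number of mice limits the precision of each value.

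The EtOH+RSV livers differed from the control livers over the whole profile. The distance between a pair of arrays was taken as 1 less their Pearson correlation across probe sets. Its mean was 0.00861 between the diets (0.00609 to 0.0123), against 0.00262 within the EtOH+RSV group (0.00168 to 0.0041) and 0.00225 within the control group (0.000725 to 0.00357). No distance between the diets was as small as the largest distance within a diet. The excess of the between-diet over the within-diet mean was 0.00617 (exact permutation test, 1-sided, P = 0.0286, which is the smallest value that the 70 ways of choosing 4 of 8 arrays allow).

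In the limma fit of all 16 wild-type arrays, 4084 probe sets were higher (9.07% of those tested) and 4801 were lower (10.7%) on EtOH+RSV at a Benjamini-Hochberg adjusted P under 0.05. Quantile normalization turned this split to 17263 higher and 7736 lower, and centring each array on its median to 800 and 1653. Over genes, 2039 were higher (11.2%) and 2280 lower (12.5%). Of the 3855 uncompressed genes, 555 were higher (14.4%) and 1195 were lower (31.0%), and these shares are the background against which the counts of gene groups below should be read. The difference reached 1 DFW log2 unit in 41 of the higher and 31 of the lower genes. The median difference over all uncompressed genes was -0.06. Among these genes quantile normalization shifted the difference by a median of 0.03 and gave 809 higher and 1229 lower, and median centring gave 418 and 951. In 4707 genes (25.9%) the 4 EtOH+RSV arrays did not overlap the 4 control arrays, in one direction or the other. Calls in 377 higher and 870 lower uncompressed genes held whichever of the 8 mice was left out. Of the genes named below, the calls of Slc39a8, Mars1, Lars, Per1, Cyp27a1, Clock, Hmox1, Srsf3, Nfil3 and Ecm1 were lost in 2 to 4 of the 8 fits without 1 mouse, and those of Zfp36, Eif4ebp2, Ugt2b1, Gclc, Gstm7, Alas1, Bhmt, Elovl3, G6pc and Dcn in 5 to 7 of them.

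**Figure D1:**
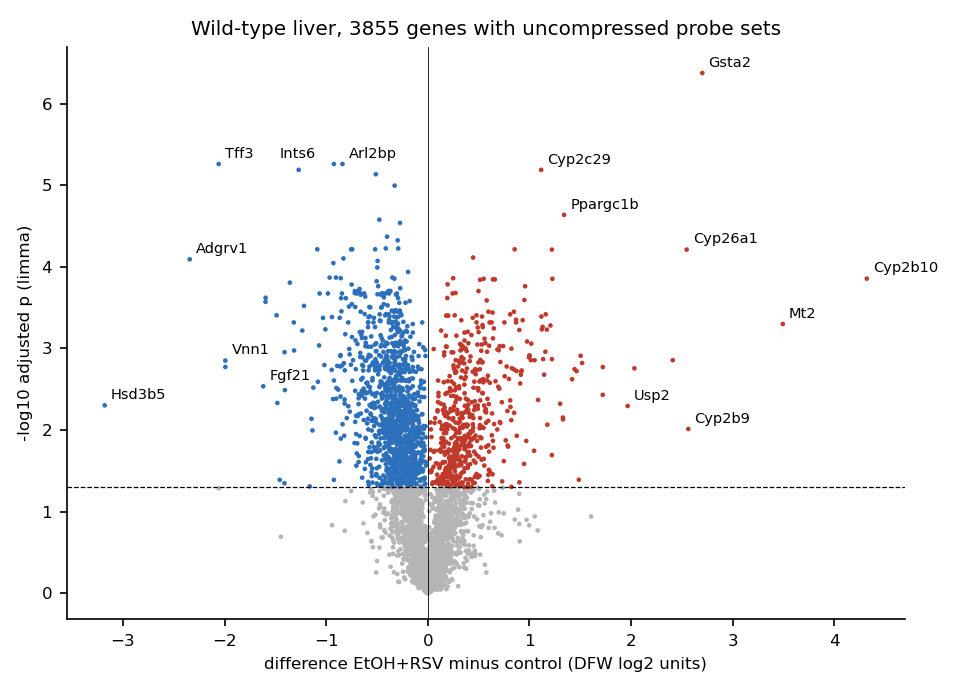
Each point is an uncompressed gene (n = 3855), with the difference EtOH+RSV minus control on the x axis (DFW log2 units) and minus log10 of the limma adjusted P on the y axis. Red points were higher and blue points lower on EtOH+RSV, grey points did not pass, and the dashed line marks an adjusted P of 0.05. Cyp2b10 had the largest positive difference (4.32), Hsd3b5 the largest negative one (-3.18) and Gsta2 the smallest adjusted P (4.2e-07).

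The genes that CAR activators induce were higher on EtOH+RSV. Of 23 measured CAR targets, all of them uncompressed, 16 were higher and 0 were lower, with a median difference of 0.56, against 14.4% higher and a median of -0.06 over all uncompressed genes. Cyp2b10, the cytochrome P450 most used as a readout of CAR, had 10.60, 9.64, 9.61 and 9.13 in the 4 EtOH+RSV livers, against 5.12, 5.44, 5.54 and 5.59 in the 4 control livers. Its lowest EtOH+RSV liver lay far above its highest control liver, and the difference was 4.32 (SE 0.42, limma adjusted P = 0.00014). Cyp2b9 of the same family had 10.20, 10.34, 9.44 and 8.53 in EtOH+RSV livers and 6.29, 6.69, 8.46 and 6.81 in control livers. The lowest EtOH+RSV liver was here only just above control mouse 3 (difference 2.56, SE 0.57, limma adjusted P = 0.00971).

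Cyp2c29, a P450 of the Cyp2c family, had one of the 10 smallest adjusted P values of all uncompressed genes. It had 13.71, 13.60, 13.53 and 13.55 in EtOH+RSV livers and 12.32, 12.49, 12.49 and 12.61 in control livers (difference 1.12, SE 0.07, limma adjusted P = 6.47e-06). Cyp2c37, Cyp2c54 and Cyp2c38 differed by 1.16, 1.12 and 1.02. Members of these families are alike in sequence, so reads of one by the probe set of another were not separable. The export pump gene Abcc3 was higher by 0.55, the sulfotransferase gene Sult1d1 by 0.69 and Cyp3a11, the main drug-oxidizing P450 of mouse liver, by 0.20 (SE 0.02). Alas1, the rate-limiting enzyme of heme synthesis, had the largest difference in the list after the Cyp2b genes (1.49, SE 0.46, limma adjusted P = 0.0408). Its EtOH+RSV livers ranged between 10.31 and 11.54, and control mouse 1, at 10.49, lay inside that range. The CAR gene itself, Nr1i3, did not pass (9.35 to 9.74 in EtOH+RSV livers and 9.22 to 9.65 in control livers).

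Glutathione transferases, which join glutathione to reactive compounds, were also higher. Of 18 uncompressed members, 12 were higher and 1, Gstm7, was lower (-0.26, with another Gstm7 probe set called in the opposite direction). The median difference was 0.46. Gsta2 had 11.31, 11.18, 10.83 and 10.94 in EtOH+RSV livers, against 8.44, 8.26, 8.27 and 8.49 in control livers. All 4 EtOH+RSV livers stood more than 2 units above all 4 control livers, with a difference of 2.7 (SE 0.11, limma adjusted P = 4.2e-07). Gstt3 differed by 1.5, Gstm3 by 1.42, Gstm1 by 0.87 and Gsta4 by 0.85. These genes are near-copies of each other, as those of the Cyp2c family are. The targets of NRF2, the other main inducer of such enzymes, gave 2 higher and 1 lower of 14 uncompressed members, which is close to the background on the higher side. Those higher were the microsomal epoxide hydrolase Ephx1 (0.65) and the heme oxygenase Hmox1 (0.23). The lower one was Gclc, the catalytic subunit of the first enzyme of glutathione synthesis (difference -0.70, limma adjusted P = 0.0274).

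Metallothioneins are small cysteine-rich proteins that bind zinc and copper, and their genes are switched on through metal response elements near the start site. Both were higher on EtOH+RSV. Windows of their promoters are shown because the genes moved together by a large step; the capitals mark the core TGCGCNC or TGCACNC on either strand (RefSeq, GRCm38.p6; Mt1 chr8:94179054-94179084 and Mt2 chr8:94172383-94172586, both on the plus strand).
Mt1: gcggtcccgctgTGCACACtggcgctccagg
Mt2: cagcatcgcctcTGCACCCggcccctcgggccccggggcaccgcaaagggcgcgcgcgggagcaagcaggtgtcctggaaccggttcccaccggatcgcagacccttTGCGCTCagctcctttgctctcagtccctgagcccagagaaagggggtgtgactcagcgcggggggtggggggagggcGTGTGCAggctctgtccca
The Mt1 window ran from 35 to 5 bases before the start and held 1 match, and the Mt2 window ran from 235 to 32 bases before the start and held 3. Mt1 had 2 further matches and Mt2 had 1 within the 50 bases after the start, which are not shown. The core is short and common: 25.7% of 32851 promoters (250 bases before to 50 after the start) held it, so a match is a description only. The promoter of Slc30a10, a gene of the same list that was lower, held the core too. The sequence is that of the reference strain, not of C3H/HeN.

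Mt2 had 10.73, 11.10, 10.62 and 11.45 in EtOH+RSV livers, against 7.45, 7.24, 7.59 and 7.63 in control livers. The groups lay 3 units apart, with a difference of 3.49 (SE 0.45, limma adjusted P = 0.000503). Mt1 had 11.47, 12.03, 11.39 and 11.99 in EtOH+RSV livers and 9.31, 9.28, 9.41 and 9.25 in control livers (difference 2.41, SE 0.37, limma adjusted P = 0.00139). A second, dimmer Mt1 probe set differed by 0.80 in the same direction. Of the zinc carriers, the zinc importer Slc39a4 was higher by 0.66, and Slc30a10, a manganese exporter, was lower by 0.85 on the DFW log2 scale (7.24, 7.21, 7.58 and 7.56 in EtOH+RSV livers and 8.26, 8.23, 8.16 and 8.35 in control livers). Slc39a8 (-0.23) and Slc39a1 (-0.19) were lower as well, so that 3 of the 10 uncompressed members of this list were higher and 3 were lower.

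**Figure D2:**
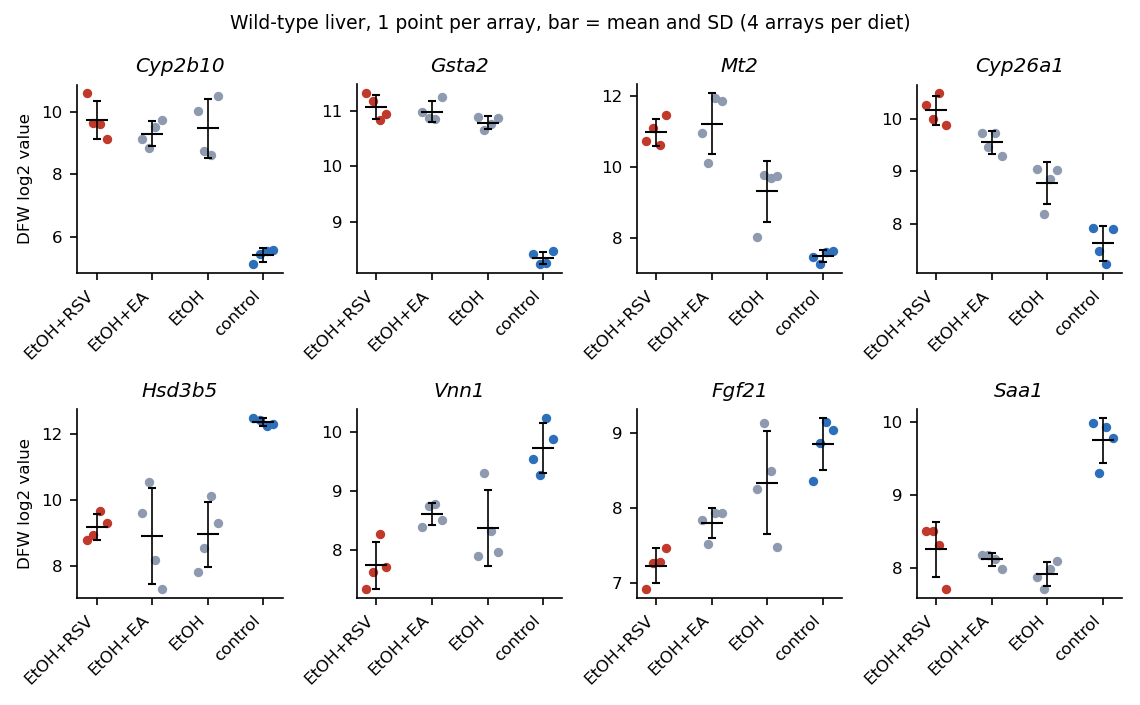
Each point is the DFW log2 value of 1 wild-type mouse for 8 of the named genes, by diet, and the bars give the mean and SD of 4 mice. EtOH+RSV values of Cyp2b10, Gsta2, Mt2 and Cyp26a1 lay above all control values, and those of Hsd3b5, Vnn1, Fgf21 and Saa1 lay below all control values.

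A few further genes of large difference or small adjusted P act on retinoids, for which no list was made. Cyp26a1, the main enzyme that breaks down retinoic acid, had 10.28, 10.00, 10.50 and 9.89 in EtOH+RSV livers and 7.91, 7.47, 7.22 and 7.89 in control livers. This was a difference of 2.55 (SE 0.22, limma adjusted P = 6.15e-05) between groups that did not overlap. The related Cyp26b1 differed by 1.52 (SE 0.24, limma adjusted P = 0.00151) and Lrat, which makes the stored esters of retinol, by 0.48 (limma adjusted P = 0.02). Bco1, which cleaves beta-carotene into retinal, was lower, with 7.28, 7.39, 7.43 and 7.39 in EtOH+RSV livers and 7.80, 7.95, 7.85 and 7.80 in control livers (difference -0.48, SE 0.04, limma adjusted P = 2.64e-05).

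Clock genes were higher on EtOH+RSV in a group of repressors and output genes. Of 9 uncompressed repressors, 5 were higher (Per1, Ciart, Per3, Cry2 and Nr1d2) and 1 was lower (Nfil3), with a median difference of 0.49. Among the 7 uncompressed activators and output genes, Usp2 and Tef were higher and Clock was lower. The BMAL1 gene, Arntl, did not pass (difference -0.40, adjusted P = 0.11 by limma), nor did Dbp, a D-box activator (0.58, adjusted P = 0.0567 by limma). Promoter windows of Ciart, Per1, Tef and Per3 are shown because these genes were higher and their promoters held the letters of an E-box or a D-box. Capitals mark the E-box CACGTG in the first 3 windows and the D-box TTATGTAA in the last (RefSeq, GRCm38.p6).
Ciart (chr3:95882255-95882356, minus strand): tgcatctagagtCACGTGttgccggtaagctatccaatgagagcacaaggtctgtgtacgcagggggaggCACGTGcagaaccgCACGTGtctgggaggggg
Per1 (chr11:69098771-69098800, plus strand): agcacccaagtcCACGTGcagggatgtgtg
Tef (chr15:81802534-81802563, plus strand): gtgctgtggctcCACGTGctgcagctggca
Per3 (chr4:151044804-151044882, minus strand): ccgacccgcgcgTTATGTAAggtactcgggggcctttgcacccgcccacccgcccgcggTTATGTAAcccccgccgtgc
Ciart, a repressor of CLOCK and BMAL1, thus held 3 E-boxes between 128 and 27 bases before its start, Per1 and Tef held 1 in the windows shown, and Per3 held 2 D-boxes between 217 and 139 bases before its start. Among all promoters in the table, 7.15% held the E-box and 1.06% held a D-box (TTATGTAA or TTACGTAA), on either strand. The promoters of Cry2, Nr1d2 and Usp2, which were higher, held neither set of letters within the 300 bases searched. Those of Cry1, which did not pass (-0.37), and of the compressed Bhlhe41 each held an E-box, so holding these letters and being higher did not go together throughout.

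Usp2, a ubiquitin-specific protease whose gene follows the clock, had 9.39, 9.50, 9.24 and 9.13 in EtOH+RSV livers and 6.77, 7.12, 7.74 and 7.78 in control livers (difference 1.97, SE 0.39, limma adjusted P = 0.00508). Ciart had 8.55, 8.38, 8.25 and 8.20 in EtOH+RSV livers and 6.86, 7.05, 7.44 and 7.44 in control livers (difference 1.14, SE 0.19, limma adjusted P = 0.0021). Per3, a PER family member, had 8.46, 8.66, 8.55 and 8.18 in EtOH+RSV livers and 7.20, 7.56, 7.63 and 7.79 in control livers (difference 0.92, SE 0.15, limma adjusted P = 0.0021). In all 3 genes control mouse 1 was the lowest of the control mice and the diets did not overlap. Tef had 10.45, 10.57, 10.37 and 10.52 in EtOH+RSV livers and 9.21, 9.70, 9.83 and 9.86 in control livers (difference 0.83). Cry2 (0.54) and Nr1d2 (0.45), which encodes the repressor REV-ERB beta, were higher by less. Per1, the last of the repressors, had 8.36, 8.27, 8.04 and 8.47 in EtOH+RSV livers and 6.69, 7.02, 7.33 and 7.21 in control livers (difference 1.22, SE 0.32, limma adjusted P = 0.0203).

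Nfil3, which represses genes at D-boxes, had 7.67, 7.90, 7.64 and 8.06 in EtOH+RSV livers and 8.11, 8.38, 8.79 and 8.43 in control livers. The lower values were thus on EtOH+RSV, but the closest mice, at 8.06 and 8.11, nearly met (difference -0.61, limma adjusted P = 0.0249). Clock, a core activator, had 7.57, 7.34, 7.83 and 7.93 in EtOH+RSV livers and 8.26, 8.09, 8.20 and 8.04 in control livers (difference -0.48, limma adjusted P = 0.0282). The livers were collected at a single clock time, so a shift in the phase of the rhythm and a change in its mean level cannot be told apart.

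Of the clock genes, 2 repressors, Ciart and Per3, also differed between EtOH+RSV and ethanol alone, in calls lost without EtOH+RSV mouse 2. Ciart ranged between 8.20 and 8.55 on EtOH+RSV and had 7.18, 7.81, 6.93 and 7.36 on EtOH. Per3 ranged between 8.18 and 8.66 on EtOH+RSV and had 7.30, 7.82, 7.35 and 7.66 on EtOH. In both genes all 4 EtOH mice lay below all 4 EtOH+RSV mice, and EtOH mouse 3 was the highest of its diet. In the direct contrast EtOH+RSV minus EtOH, Ciart differed by 1.02 (SE 0.19, limma adjusted P = 0.0485) and Per3 by 0.93 (SE 0.15, limma adjusted P = 0.0356). Usp2 differed by 1.53 (limma adjusted P = 0.106) and Per1 by 0.93 (limma adjusted P = 0.205). Usp2 and Per1 were high in EtOH mouse 3 (9.17 for Usp2 and 8.30 for Per1) and lower in the other 3 mice of that diet. On EtOH+EA the differences from control were 2.02 for Usp2, 1.03 for Per3, 0.89 for Ciart and 0.86 for Tef.

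**Figure D3:**
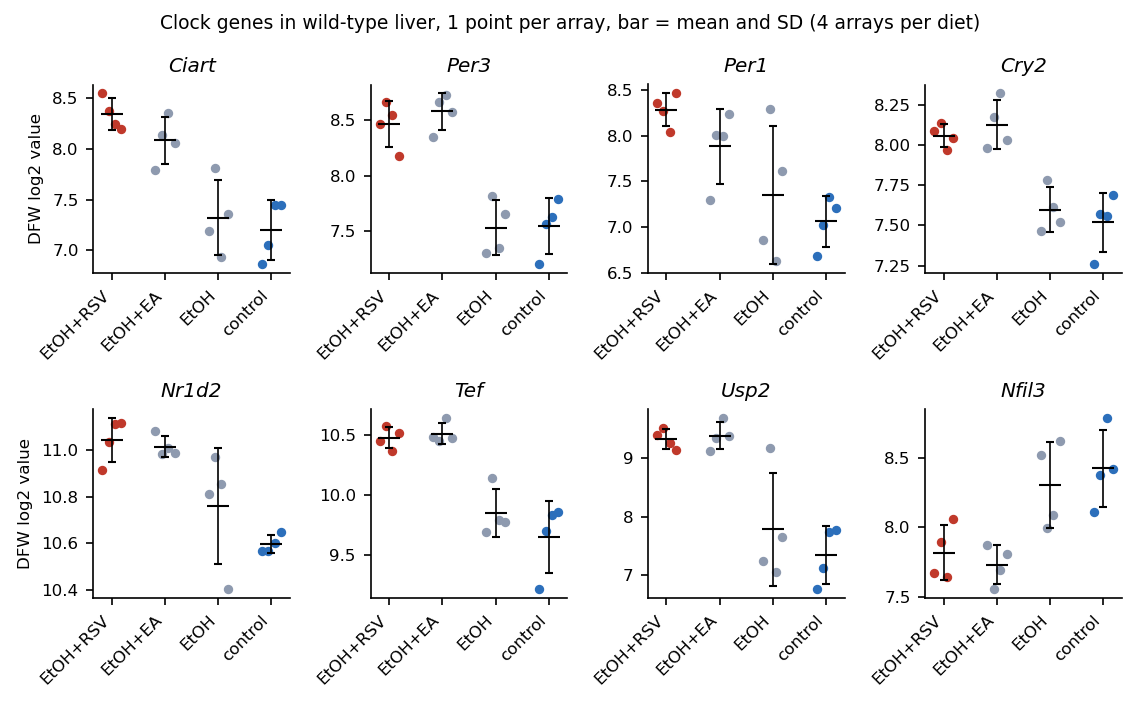
Each point is the DFW log2 value of 1 wild-type mouse for 8 clock genes, by diet, and the bars give the mean and SD of 4 mice. EtOH+RSV mice lay above all control mice in Ciart, Per3, Per1, Cry2, Nr1d2, Tef and Usp2 and below them in Nfil3. EtOH mouse 3 is the high EtOH point in Usp2 and Per1.

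Over all genes, 101 (0.555%) differed between EtOH+RSV and EtOH, and 79 of them were uncompressed. Of the 101, 86 also differed from control: 39 were higher on EtOH+RSV than on both EtOH and control and 45 were lower than on both. The other 2, Cyp3a11 and the chaperonin subunit gene Cct3, lay between, higher than on control but lower than on EtOH. The 2 contrasts share the EtOH+RSV mice. The number of calls depended on single mice. Over all probe sets, 70 were higher and 94 lower with all mice. Without EtOH+RSV mouse 2 there were 0 calls, so every call against EtOH given in this text was lost without that mouse. Without EtOH+RSV mouse 1 there were 6 higher and 1 lower, and without EtOH+RSV mouse 4 there were 204 higher and 365 lower. Without EtOH mouse 1, 3, 4 or 5 the higher calls numbered 11, 44, 15 and 126 and the lower calls 24, 34, 28 and 203. A fit of these 2 diets alone gave 1 higher and 0 lower.

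Among the genes that passed, the largest positive differences from EtOH were in Dclre1a (1.62), Cyp26a1 (1.40), Ciart (1.02) and Per3 (0.93). The next, Ppargc1b, encodes PGC-1 beta, a coactivator of nuclear receptors and of genes for mitochondria and fat synthesis. It had 9.70, 9.56, 9.50 and 9.50 in EtOH+RSV livers, 8.54, 8.69, 8.90 and 8.6 in EtOH livers, and 8.13, 8.40, 8.11 and 8.26 in control livers. The EtOH+RSV mice were above all EtOH and control mice, by 0.88 over EtOH (SE 0.10, limma adjusted P = 0.0101) and by 1.34 over control (SE 0.10, limma adjusted P = 2.31e-05). Of the other coactivator genes, Pprc1 was lower than on control (-0.58). The sirtuin gene Sirt1, the deacetylase most often named with resveratrol, was compressed, with a DFW value of 8.10 in all 16 wild-type mice. Compressed probe sets could still pass, but the size of a change in Sirt1 could not be read from these values.

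Among the genes that passed, the largest negative differences from EtOH were in Tubb2a, a beta-tubulin (-1.19), Chka, a choline kinase (-1.05), Slc30a10 (-0.61) and Dnajb1, a cochaperone of HSP70 (-0.60). Tubb2a had 8.13, 7.79, 8.04 and 8.46 in EtOH+RSV livers, 9.41, 9.48, 9.51 and 8.77 in EtOH livers, and 9.82, 9.59, 9.47 and 9.92 in control livers. The EtOH+RSV mice were below every EtOH and control mouse. Chka did not pass against control (-0.48, limma adjusted P = 0.0558).

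A number of enzymes of nitrogen disposal and of the methionine and folate cycles were higher on EtOH+RSV. Of 10 uncompressed genes of the urea cycle and glutamine metabolism, 5 were higher and 0 lower, and all 5 calls held in every fit without 1 mouse. Oat, which makes glutamate from ornithine in pericentral hepatocytes, had 12.73, 12.89, 12.35 and 12.37 in EtOH+RSV livers and 11.43, 11.34, 11.27 and 11.39 in control livers (difference 1.23, SE 0.12, limma adjusted P = 0.00014). Asl, the argininosuccinate lyase, had 11.62, 11.60, 11.36 and 11.34 in EtOH+RSV livers and 10.43, 10.62, 10.51 and 10.57 in control livers (difference 0.95). Arginase 1 (Arg1, 0.69), the entry enzyme Cps1 (0.30) and Nags (0.25), which makes the activator of CPS1, were the others. The 2 diets did not overlap in Oat or in Asl.

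In the methionine and folate cycles, which supply methyl groups, 9 of 20 uncompressed genes were higher and 0 were lower, with a median difference of 0.27. Cth, which makes cysteine from cystathionine, had 12.87, 12.70, 12.49 and 12.36 in EtOH+RSV livers and 11.55, 11.77, 11.47 and 11.58 in control livers (difference 1.01, SE 0.16, limma adjusted P = 0.00139). Mtrr (0.40), Shmt2 (0.40), Mat1a (0.38), Gnmt (0.38) and Ahcy (0.28) were higher by less. Gnmt, the enzyme that uses up excess S-adenosylmethionine, was also higher than on EtOH (0.30, limma adjusted P = 0.0485). Betaine methyltransferase, Bhmt, was higher by 0.46. Outside this list, Cdo1, which oxidizes cysteine towards taurine, was lower, with 12.83, 12.81, 12.90 and 12.86 in EtOH+RSV livers and 13.17, 13.20, 13.20 and 13.15 in control livers (difference -0.33, SE 0.02, limma adjusted P = 1.01e-05). The aminotransferase gene Got1 was among the 15 largest positive differences (1.72, SE 0.32, limma adjusted P = 0.0037), with 11.46, 10.97, 10.88 and 10.52 in EtOH+RSV livers and 9.58, 9.41, 8.99 and 8.96 in control livers.

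Genes of the tricarboxylic acid cycle split. Of 15 uncompressed members, 4 were higher (Idh2 by 0.52, Fh1 by 0.36, Aco1 by 0.27 and Mdh2 by 0.17) and 3 were lower, among them citrate synthase, Cs, the entry enzyme (-0.56, SE 0.08, limma adjusted P = 0.000713). The others that were lower were Dlat (-0.35) and Pdhb (-0.21), subunits of the pyruvate dehydrogenase complex. Of 15 uncompressed genes of glucose and glycogen metabolism, 3 were higher and 2 lower, and the higher count was 1 or 2 in every fit without 1 mouse. Foxo1, a transcription factor that insulin keeps out of the nucleus, was higher by 0.61 (SE 0.08, limma adjusted P = 0.000481). Ppp1r3c, which targets a phosphatase to glycogen, was lower (-1.14, limma adjusted P = 0.0101). G6pc, the enzyme that releases free glucose, had 10.83, 10.23, 9.40 and 11.02 in EtOH+RSV livers and 11.63, 12.02, 11.84 and 11.81 in control livers (difference -1.46, SE 0.45, limma adjusted P = 0.0409). Its EtOH+RSV mice were spread over more than 1 unit, and the call was lost with median centring. In NAD synthesis, Nampt, the salvage enzyme, was higher by 0.71 and Tdo2, which opens the route from tryptophan, by 0.22, among 3 higher and 1 lower of 12 uncompressed genes.

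Lipid genes gave few calls as groups but some large single differences. In cholesterol synthesis and uptake, 1 of 19 uncompressed genes was higher and 0 were lower, and in fatty acid oxidation 2 were higher and 3 lower of 21, below the background on both sides. In fatty acid and triglyceride synthesis, 1 of 21 was higher (Lpin2, a phosphatidate phosphatase, by 0.85) and 4 were lower, among them Agpat2 (-0.46), Elovl5 (-0.45) and Elovl3 (-1.41, limma adjusted P = 0.045). Over all measured members of this list 5 were lower, and 2 or 3 without EtOH+RSV mouse 1 or 2 or control mouse 2, 3 or 4. Elovl3 lost its call with median centring and in limma without moderation. Among PPAR alpha targets, 2 were higher and 3 lower of 15. Vnn1, a pantetheinase and one of the strongest PPAR alpha targets of mouse liver, had 7.34, 7.64, 8.28 and 7.72 in EtOH+RSV livers and 9.54, 9.28, 10.25 and 9.89 in control livers (difference -1.99, SE 0.31, limma adjusted P = 0.00141). Fgf21, a fasting hormone made by the liver, had 6.92, 7.27, 7.29 and 7.47 in EtOH+RSV livers and 8.36, 8.87, 9.15 and 9.05 in control livers (difference -1.62, SE 0.29, limma adjusted P = 0.00291). Angptl4, an inhibitor of lipoprotein lipase and another target, was higher (0.49, limma adjusted P = 0.0136), so the members that passed did not move one way.

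Fabp5, a fatty acid binding protein, had 10.20, 9.38, 9.90 and 9.49 in EtOH+RSV livers and 11.86, 11.88, 11.53 and 11.66 in control livers (difference -1.99, SE 0.32, limma adjusted P = 0.00169). Among 14 uncompressed apolipoprotein and lipoprotein genes, 5 were lower and 1 was higher, close to the background. The lower ones included Apoa4 (-0.86), the phospholipid transfer protein Pltp (-0.84) and lipoprotein lipase, Lpl (-0.75, SE 0.09, limma adjusted P = 0.000287). The higher one was Apoa5 (0.23). Bile acid synthesis had 3 lower and 1 higher of 14. Cyp7b1, of the alternative route, was lower (-0.86, limma adjusted P = 0.0128), and so were Hsd3b7 (-0.51) and Amacr (-0.30, SE 0.02, limma adjusted P = 4.73e-05), while Cyp27a1 was higher (0.17). Of the lipid droplet genes, Mgll (-0.44) and Abhd5 (-0.28) were lower and Pnpla2, the first lipase of stored fat, was higher (0.30).

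Some nuclear-encoded genes of the respiratory chain were lower by small amounts. Of 32 uncompressed members, 14 were lower and 0 were higher, against a background of 31.0% lower, and the median difference was -0.08, near the -0.06 of all uncompressed genes. The largest were Uqcr11 and Uqcrq, subunits of complex III, at -0.19 each, and the others that passed had smaller differences.

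Genes of protein synthesis were also lower. Of 10 uncompressed aminoacyl-tRNA synthetases, which load amino acids onto tRNA, 7 were lower and 0 were higher, with a median difference of -0.29. Cars, the cysteinyl enzyme, had 7.17, 7.08, 7.12 and 7.22 in EtOH+RSV livers and 8.01, 7.96, 7.75 and 7.89 in control livers (difference -0.75, SE 0.06, limma adjusted P = 6.09e-05). Mars1, Sars, Tars, Iars, Aars and Lars lay between -0.34 and -0.27. Aars, the alanyl enzyme, had 9.42, 9.38, 9.40 and 9.47 in EtOH+RSV livers, 9.68, 9.76, 9.69 and 9.69 in EtOH livers, and 9.69, 9.70, 9.69 and 9.75 in control livers. The EtOH and control mice shared a range, and the EtOH+RSV mice lay below it (difference from EtOH -0.29, SE 0.04, limma adjusted P = 0.0183). Tars also differed from EtOH (-0.45, limma adjusted P = 0.0367). Of 18 uncompressed initiation factors, 9 were lower and 0 were higher, with a median of -0.17, led by Eif2s2 (-0.47), Eif2b4 (-0.41), Eif4ebp2 (-0.29) and Eif1b (-0.28). Over all measured members, compressed ones included, the synthetases had 0 higher and 9 lower and the initiation factors 0 and 12, whereas quantile normalization gave 9 higher and 7 lower synthetases and 11 higher and 12 lower initiation factors.

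The targets of ATF4, the factor of the amino acid response, split into 4 higher and 3 lower of 12 uncompressed. Atf4 itself had 9.15, 9.43, 9.14 and 9.31 in EtOH+RSV livers and 10.10, 9.74, 9.85 and 9.71 in control livers (difference -0.59, SE 0.10, limma adjusted P = 0.00263). Trib3, a pseudokinase, was higher (1.16, SE 0.17, limma adjusted P = 0.0011), as was the transcription factor gene Cebpb (0.93, limma adjusted P = 0.000451), and Fgf21 was lower, as given above.

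Cytosolic heat shock genes also split, with 7 higher and 5 lower of 19 uncompressed. Those higher included the small heat shock protein Hspb8 (0.71), the cochaperone Stip1 (0.30), the constitutive HSP70, Hspa8 (0.27), and Hspe1 (0.22). Hspe1 is a mitochondrial cochaperonin, so the list was not wholly cytosolic. Those lower included Bag3 (-0.66), Dnajb4 (-0.65), Dnajb1 (-0.59) and the inducible HSP70, Hspa1a (-0.54). Dnajb1 had 8.25, 8.33, 8.21 and 8.28 in EtOH+RSV livers, 9.0, 9.0, 8.77 and 8.71 in EtOH livers, and 8.86, 8.62, 8.95 and 8.99 in control livers. Hspb8, by contrast, had 9.87, 9.84, 9.76 and 9.54 in EtOH+RSV livers, 9.75, 10.17, 9.70 and 9.66 in EtOH livers, and 8.94, 9.07, 9.07 and 9.06 in control livers. Dnajb1 was thus lower on EtOH+RSV than on both EtOH and control, and Hspb8 lay in one range on both ethanol diets, above control. Among genes of endoplasmic reticulum stress 5 were higher and 2 lower of 27, and among proteasome subunits 1 was higher and 4 lower of 22. The lower proteasome count was 2 whichever mouse was left out, and the higher count for endoplasmic reticulum stress was 2 without EtOH+RSV mouse 1. Over all measured heat shock genes, 8 were higher, and 5 without EtOH+RSV mouse 1 or 2 or control mouse 2 or 3.

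Splicing and nuclear RNA binding genes had 11 lower and 2 higher of 38 uncompressed, and chromatin modifiers had 4 lower and 1 higher of 14, both close to the background of 31.0% lower. The largest were Hnrnpd (-0.64), Srsf3 (-0.57) and Kat2b, a histone acetylase (-0.58), and Hnrnpa1 was higher (0.53). In the cell cycle list 4 of 8 uncompressed genes were lower, a count that was 2 or 3 in every fit without 1 mouse. Ccnd1, the cyclin of entry into the cycle, had 7.97, 8.05, 8.40 and 8.03 in EtOH+RSV livers and 9.78, 9.93, 9.05 and 9.62 in control livers (difference -1.48, SE 0.29, limma adjusted P = 0.00467). Mcm7, part of the replicative helicase, was lower by 0.42 on the DFW log2 scale. Of 12 immediate early genes, Jund (-0.93) and Dusp1 (-0.63) were lower and Zfp36 was higher (0.61).

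Genes that differ between male and female liver moved on both sides in these mice, whose stated sex was female. Of 13 uncompressed male-biased genes, 8 were lower and 1, Ugt2b1, was higher, with a median difference of -0.75. Hsd3b5, a steroid reductase of male liver, had 8.79, 8.94, 9.68 and 9.30 in EtOH+RSV livers and 12.48, 12.41, 12.23 and 12.29 in control livers. This was the largest negative difference of all genes (-3.18, SE 0.62, limma adjusted P = 0.00499). It was lower by a like amount on EtOH (7.83, 8.55, 10.13 and 9.31). Hsd3b5 was thus high, and the female-biased Cyp2b9 low, in control livers of mice stated to be female. Of 14 measured male-biased genes 13 were uncompressed, and of 12 female-biased genes 6 were. The sex of the mice was not tested. Serpina12 (-1.08), Slco1a1, an organic anion carrier (-0.82), C6 (-0.78) and Obp2a (-0.52) were the next that kept their calls whichever mouse was left out, beside Cyp7b1. Of 6 uncompressed female-biased genes, Cyp2b9 and the oxygenase Fmo2 (0.79) were higher and 0 were lower. Among glucocorticoid-responsive genes 6 of 14 were higher and 1 was lower. The higher ones included Zbtb16 (1.30), the chaperone Fkbp5 (0.81) and Klf9 (0.68), besides Mt2 and Per1, which are also in other lists. The lower one was the phosphatase Dusp1. Corticosterone was not measured in the data used here.

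Several acute phase proteins, which hepatocytes release in inflammation, were lower, although the median difference of the list (-0.08) was near that of all uncompressed genes. Of 19 uncompressed members, 9 were lower and 0 were higher. Saa1, a serum amyloid A, had 8.51, 8.51, 8.32 and 7.71 in EtOH+RSV livers and 9.98, 9.31, 9.93 and 9.79 in control livers (difference -1.49, SE 0.18, limma adjusted P = 0.000393). Its near-copy Saa2 differed by -1.22 and the pentraxin Apcs by -0.67. The 3 fibrinogen chain genes Fga (-0.35), Fgb (-0.30) and Fgg (-0.25), haptoglobin (Hp, -0.25) and ceruloplasmin (Cp, -0.22) were lower by less. Of 15 uncompressed interferon-stimulated genes, 4 were lower and 1 was higher, close to the background. Over all measured members 6 were lower, and 2 and 3 without control mouse 3 and mouse 4.

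Markers of Kupffer cells, the macrophages of the liver, were lower in the same mice. Of 9 uncompressed markers, 7 were lower (Adgre1, C1qa, C1qb, C1qc, Clec4f, Cd5l and Vsig4) and 1, the ficolin gene Fcna, was higher (0.34). Adgre1, which encodes the macrophage surface receptor most used as a marker, had 7.84, 7.52, 7.56 and 7.59 in EtOH+RSV livers and 8.14, 8.09, 8.21 and 8.31 in control livers (difference -0.56, SE 0.08, limma adjusted P = 0.000953). The mean over all 14 markers lay between 8.48 and 8.59 in EtOH+RSV livers and between 8.61 and 8.71 in control livers. Of these 14, compressed ones included, 9 were lower and 2 higher on EtOH+RSV than on control. On EtOH alone 8 were lower and 1 was higher than on control, and 0 differed between EtOH+RSV and EtOH. In whole liver, fewer cells of a type and less RNA per cell cannot be told apart. Hepatocyte markers averaged 13.2 to 13.3 in EtOH+RSV livers and 13.1 to 13.2 in control livers, which bears out the tissue label, with 1 higher and 1 lower of 6 uncompressed. Markers of bile duct and of neutrophils were all compressed, and lymphocyte and red cell markers had 1 and 2 uncompressed members, none of which passed. Of the pancreas and fat markers the 1 uncompressed member, the elastase gene Cela1, was lower (-0.39, limma adjusted P = 0.0322), a call that was lost in 7 of the 8 fits without 1 mouse. Of the stellate cell and matrix genes, 3 of 7 uncompressed were higher (Lrat, Ecm1 by 0.22 and Dcn by 0.14). Sinusoidal endothelial markers had 1 higher (Gpr182) and 1 lower (Stab2) of 5. The part of these cell types in the other results was not tested.

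**Figure D4:**
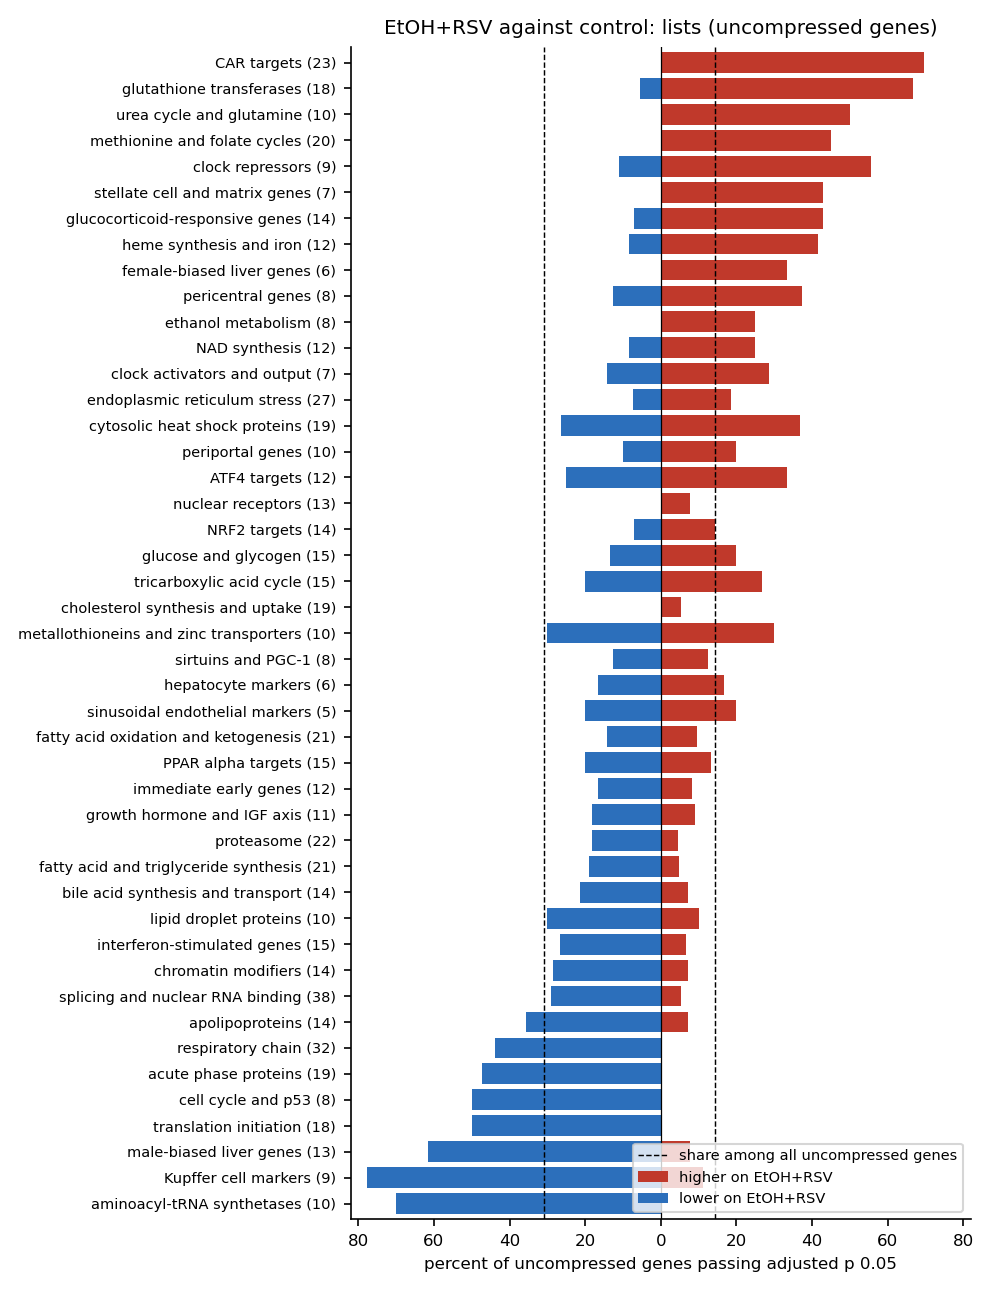
Bars give, for each gene list with 5 or more uncompressed genes (their number in brackets), the percent of those genes that were higher (red, right) or lower (blue, left) on EtOH+RSV than on control in wild-type liver at a limma adjusted P under 0.05. Dashed lines mark the shares among all uncompressed genes, 14.4% higher and 31.0% lower. CAR targets reach 69.6% higher and the aminoacyl-tRNA synthetases show 7 of 10 lower.

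The remaining genes with the largest differences or smallest adjusted P values belong to no single group. Meg3, a long noncoding RNA of an imprinted locus, had 9.66, 9.62, 8.23 and 8.92 in EtOH+RSV livers and 7.06, 7.0, 7.01 and 7.23 in control livers (difference 2.03, SE 0.33, limma adjusted P = 0.00176). Of its 10 other probe sets, 8 passed in the same direction, 4 of them uncompressed (differences of 1.79, 0.43, 2.21 and 2.52). Dclre1a, a nuclease of crosslink repair, had 9.93, 10.19, 9.16 and 9.25 in EtOH+RSV livers, 8.09, 8.09, 7.54 and 8.32 in EtOH livers and 7.49, 8.06, 8.10 and 8.00 in control livers. On EtOH+EA it had 9.21, 9.55, 10.24 and 9.71. The mice of the 2 polyphenol diets shared a range that lay above all EtOH and control mice (EtOH+RSV minus control 1.72, SE 0.28), while its other probe sets, both compressed, did not pass. Gpcpd1, a glycerophosphodiesterase, was higher by 1.46 and the monocarboxylate carrier Slc16a5 by 1.44.

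Among the genes that were lower, Tff3, a trefoil peptide of mucous epithelia, had 6.79, 6.67, 6.61 and 6.67 in EtOH+RSV livers and 8.61, 9.10, 8.49 and 8.77 in control livers (difference -2.06, SE 0.12, limma adjusted P = 5.48e-06). Adgrv1, an adhesion receptor, had 6.99, 7.13, 7.48 and 7.65 in EtOH+RSV livers and 9.52, 9.44, 9.78 and 9.89 in control livers (difference -2.34, SE 0.21, limma adjusted P = 8.09e-05). A second, compressed Adgrv1 probe set passed in the opposite direction, by 0.000564. Tsc22d1, a leucine zipper regulator, differed by -1.60, and 3 other uncompressed probe sets of it gave -1.67, -1.57 and -1.61, while a compressed one passed in the opposite direction by 0.000848. Hdhd3 (-1.41), Serpina7, the carrier of thyroxine (-1.41), and Cyp2u1 (-1.36) completed the 15 largest negative differences. Of those named for their adjusted P, Wdr6 had 7.61, 7.55, 7.76 and 8.01 in EtOH+RSV livers and 9.0, 9.0, 9.01 and 9.01 in control livers (difference -1.27, limma adjusted P = 6.47e-06). Ints6, of the Integrator complex, differed by -0.92 (limma adjusted P = 5.48e-06) and was lower than on EtOH too (-0.42, limma adjusted P = 0.0183). Arl2bp (-0.84) and the trafficking gene Vps41 (-0.51) were the others. Each of the genes from Meg3 to Vps41 kept its call whichever mouse was left out.

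Set beside the other ethanol diets, which share the control mice, several of the genes with the largest differences had values close to those on EtOH+RSV. EtOH minus control was 4.05 for Cyp2b10, 2.42 for Gsta2, 1.11 for Cyp2c29 and -3.40 for Hsd3b5, and EtOH+EA minus control was 3.88, 2.62, 1.14 and -3.44 for the same genes in the same order. EtOH+RSV minus EtOH was 0.27 for Cyp2b10 (SE 0.42) and 0.28 for Gsta2 (SE 0.11), and neither passed (limma adjusted P = 0.811 and 0.277). Cyp3a11 did differ: it was 0.20 above control on EtOH+RSV and 0.33 above control on EtOH, and EtOH+RSV minus EtOH was -0.13 (limma adjusted P = 0.0457). For the metallothioneins EtOH minus control was 1.82 in Mt2 and 1.36 in Mt1. The EtOH mice were uneven, with 8.03, 9.77, 9.68 and 9.74 for Mt2, and EtOH+RSV exceeded them by 1.67 (SE 0.45, limma adjusted P = 0.121).

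In CAR-deficient mice, EtOH+RSV against control gave 13 genes that passed (0.0715% of 18182), 3 mice on each diet. The genotypes were summarized apart, so that the difference between them was not tested and a gene that did not pass in 3 mice is not shown to be unchanged. Over the CAR targets as a list, the median difference was 0.63 in CAR-deficient mice, where 1 gene passed, beside 0.56 in wild type. Over all measured glutathione transferases it was 0.29, where 0 passed, beside 0.32 in wild type. The single gene Cyp2b10 differed by 1.12 (SE 0.62, limma adjusted P = 0.616) in CAR-deficient mice, beside 4.32 in wild type. Cyp2c29 passed in CAR-deficient mice with 2.69 (SE 0.19, limma adjusted P = 0.00393), and Cyp2b9 reached 3.48 without passing (limma adjusted P = 0.0946). Hsd3b5 was lower there (difference -5.70, limma adjusted P = 8.47e-07). Mt2 (3.28), Mt1 (2.43) and Cyp26a1 (2.41) had differences of about the wild-type size but did not pass (limma adjusted P = 0.239, 0.238 and 0.251). The clock genes Usp2 (0.35), Per3 (0.39) and Ciart (-0.14) and the PPAR alpha targets Vnn1 (0.04) and Fgf21 (0.18) did not pass there. Of the others that passed, Slc2a1 (1.14), Rffl, Slc8b1, Sp1, Cblb, Rcor3, Zfp760 and Pcnt were higher and Mrpl41 (-0.52), Ddx46 (-0.40) and Lrp10 were lower, with differences of 0.000582 in Pcnt and -0.000402 in Lrp10. Slc2a1, the glucose carrier GLUT1, was higher in wild type too (1.21).

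**Figure D5:**
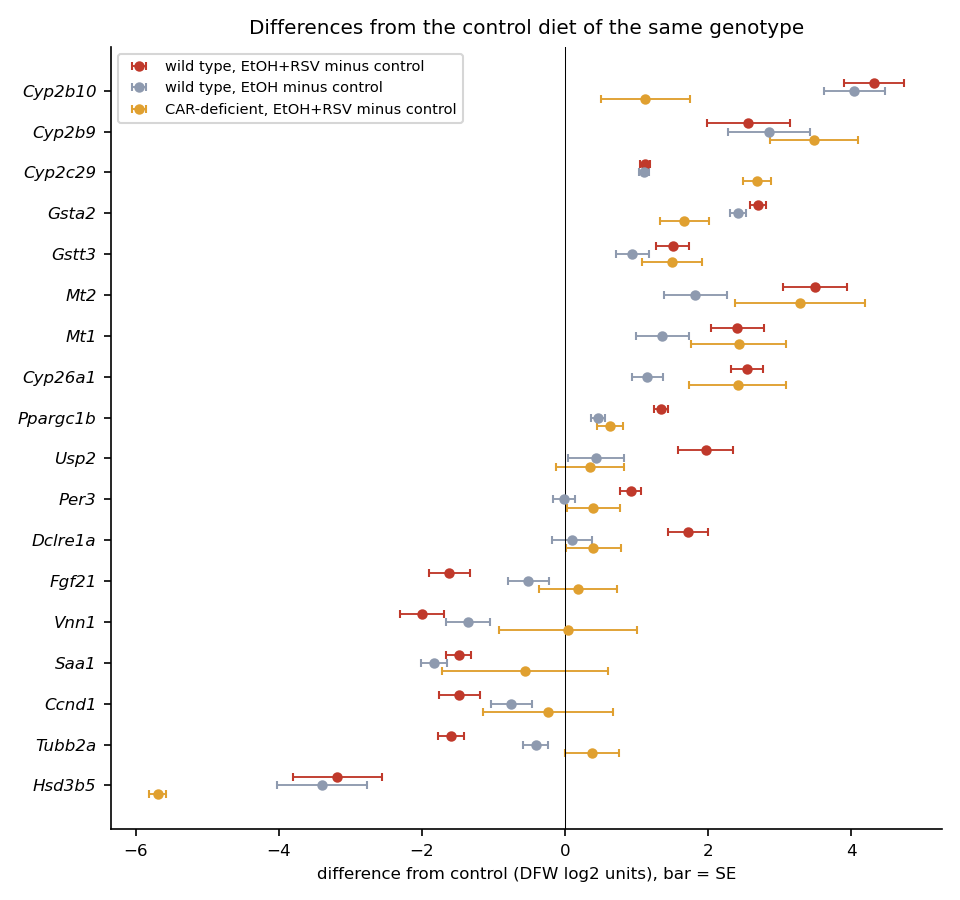
Points give differences from the control diet of the same genotype in DFW log2 units for 18 genes, with bars for the standard error: EtOH+RSV in wild type (4 mice per diet, red), EtOH in wild type (4 per diet, grey) and EtOH+RSV in CAR-deficient mice (3 per diet, orange). Cyp2b10 is at 4.32, 4.05 and 1.12, Usp2 at 1.97, 0.43 and 0.35, and Hsd3b5 at -3.18, -3.40 and -5.70.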

How the data were processed

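Liver RNA of 28 mice was measured on 1 array each, 16 wild-type and 12 CAR-deficient. The values deposited by the authors were log2 expression values of probe sets summarized with DFW, apart for each genotype; this method alters how far a probe set varies, and differences were therefore not read as fold changes. Groups followed the sample titles, and 0 value columns were left without a sample. The table held 45101 probe sets, and 64 manufacturer's controls were left out; 26 more were blank in CAR-deficient mice. Of the probe sets that named a gene alone, the one with the highest mean stood for it (34945 probe sets named 1 gene, 932 several and 9160 none). Linear models with moderated variances (limma 3.58.1 in R 4.3.3) were fitted to the 16 wild-type arrays and, separately, to the 12 CAR-deficient arrays, with diet as the only factor, and P values were adjusted by Benjamini-Hochberg over all 45037 (CAR-deficient 45011) probe sets, with a threshold of 0.05. The distance between diets was tested by exact permutation of the 8 arrays in Python 3.11.15 (numpy 2.4.6, scipy 1.17.1). The code was tested on simulated data.

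Genes were named when they had the 15 largest positive or 15 largest negative differences among called genes whose diets did not overlap, or the 10 smallest adjusted P values among uncompressed genes, or as members of 50 gene lists (916 genes measured of 993 listed). The lists and this rule were chosen with earlier results of these data known. Genes named from EtOH+RSV against EtOH and from the CAR-deficient mice, and the genes set beside them, were chosen after their values were seen. Promoter sequences were those of RefSeq on GRCm38.p6. Alternatives were other normalizations, filters, tests and thresholds, a replicate block, a fit of the compared diets alone and leaving out each mouse.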

Additional observations from a re-analysis of the deposited data

Results flagged for a closer look

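The 38 genes named for the size of their difference or their adjusted P were looked at on EtOH+RSV and on control. Of these 76 groups of 4 wild-type mice, 2 held a mouse far from the other 3, where chance alone gives about 1 in 20. For Ccnd1 the highest EtOH+RSV mouse, at 8.40, stood apart from 7.97, 8.03 and 8.05, with a gap of 0.8329 of the range of its group. For Dclre1a the lowest control mouse, at 7.49, stood apart from 8.00, 8.06 and 8.10, with a gap of 0.8375 of the range. Both gaps were just above Dixon's critical value for 4 samples, and both genes kept their calls without those mice.

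Of these 38 genes, Tubb2a alone had diets that stood apart in opposite directions in the 2 genotypes, and it did not pass in CAR-deficient mice. With 3 mice on each diet such a gap can arise by chance, and how often was not tested. All 3 EtOH+RSV mice were above all 3 control mice in CAR-deficient liver (difference 0.3825, limma adjusted P = 0.82), and all 4 were below all 4 control mice in wild-type liver (difference -1.60, limma adjusted P = 0.000269). The difference between the genotypes was not tested, since they were summarized apart.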

How the results depend on the processing

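Higher and lower probe sets are given in that order. For EtOH+RSV against control in wild type (4084 and 4801), median centring gave 800 and 1653, quantile normalization 17263 and 7736, the 2 groups alone 2378 and 3087, uncompressed probe sets only 1099 and 2407, a difference of at least 0.1 849 and 1933, and the rank product 1466 and 2142 at an FDR of 0.05 and 1241 and 1623 at 0.025. Without 1 mouse the counts ranged between 2485 and 4487 and between 3221 and 4699, and the higher count moved by over 1.5 times without EtOH+RSV mouse 1 (2536) or 2 (2485). For CAR-deficient mice (15 and 12), the counts were 32 and 16 above the median level, 4 and 8 with the 2 groups alone, 180 and 96 over uncompressed probe sets, 524 and 429 by rank product at 0.05 and 284 and 286 at 0.025, and 6 to 19 and 3 to 15 without 1 mouse. For EtOH+RSV against EtOH (70 and 94), they were 1217 and 211 with quantile normalization, 1 and 0 with the 2 groups alone, and 0 to 204 and 0 to 365 without 1 mouse. The causes were not tested. Same-numbered EtOH+RSV and control mice deviated together with r of 0.0323, 0.1663, -0.1469 and 0.2558 in wild type. In CAR-deficient mice r was -0.2856, 0.0685 and -0.4977. No sign that the numbers paired the mice was seen, but so few values cannot exclude it. With a replicate block the counts were 3938 and 5148 in wild type, 8 and 6 in CAR-deficient mice and 32 and 53 against EtOH. The 38 genes named for the size of their difference or their adjusted P gave 532 values under alternatives. Of these, 515 kept direction and call, 17 (G6pc and Elovl3) lost the call and 0 reversed. The genes were chosen by their calls in these same data, and some alternatives leave the difference unchanged by construction. This count is therefore not an independent measure of robustness. Genes named only as list members were not in this count, and many of them lost calls without 1 mouse, as given above. Of 1100 list counts, 803 stayed within 1.5 times and 297 did not. The separation of the arrays kept P = 0.0286 (exact permutation test) under every alternative run, the smallest value that each allows, and was 0.005666 to 0.006819 without 1 mouse. The compressed values limit what can be seen in 78.8% of genes.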
